A study of Homo sapiens with 6 samples.

Results

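The start sites of 9 genes of the AMPK and mTOR pathways (PRKAA1, PRKAA2, STK11, MTOR, TSC1, TSC2, DDIT4, SESN2 and ULK1) were examined for trimethylated histone H3 in H1299 cells. H1299 is a human cell line from a non-small cell lung cancer that lacks functional p53. Chromatin immunoprecipitation with sequencing (ChIP-seq) had been used to map H3K4me3, a mark of active promoters, and H3K27me3, the mark laid down by Polycomb repressive complexes. Per the labels, cross-linked chromatin was cut with micrococcal nuclease before the precipitation. The cells were grown with 5 mM metformin or without it, at passages 10-15, and the length of treatment is not given in the sources used here. The members were all intervals of the 4 deposited lists that lay within 5 kb of a fixed transcription start site (TSS) of each gene on hg19. This gave 48 of the 275570 intervals in all. Of these, 25 of 53454 came from the metformin H3K4me3 list and 23 of 50585 from the control H3K4me3 list. The metformin H3K27me3 list contributed 0 of 85952 and the control H3K27me3 list 0 of 85579. Each mark and condition had 1 library, so there is no replicate error, no test between conditions was possible, and the differences below are between libraries. The read depth is unknown, and a deeper library can give more and longer intervals.

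AMPK is a kinase that is switched on when cellular ATP falls. It phosphorylates targets that slow synthesis and promote breakdown. The kinase STK11 (LKB1) activates its catalytic subunits, and metformin, which acts on mitochondrial respiration, is known as an indirect activator. The kinase mTOR, in the complex mTORC1, drives protein synthesis and growth, and it is held back by the TSC1 and TSC2 proteins, which AMPK and stress-induced proteins can engage. Activity in this pathway is set largely by phosphorylation, whereas the marks measured here are at the genes themselves.

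All 9 genes matched the RefSeq promoter table on GRCh38.p14, which gives 250 bases before a start and 50 bases after it, and TSC2 had 2 entries. The starts in that table are not necessarily the same base as the hg19 starts used for the intervals, and positions were not converted between builds. The following 5 promoters are shown because they stand for the patterns of H3K4me3 described below. At TSC1 the start lay under H3K4me3 in both conditions, at PRKAA1 and ULK1 in the metformin list only, and at PRKAA2 and SESN2 it lay in a gap in both. They run 5′ to 3′ on the strand of the gene, from chr5:40798128-40798427 (minus strand), chr1:56645064-56645363 (plus), chr9:132944567-132944866 (minus), chr1:28259268-28259567 (plus) and chr12:131894372-131894671 (plus). Capitals mark the GC box GGGCGG, the CCAAT box and the ETS motif CCGGAAG on either strand.
PRKAA1: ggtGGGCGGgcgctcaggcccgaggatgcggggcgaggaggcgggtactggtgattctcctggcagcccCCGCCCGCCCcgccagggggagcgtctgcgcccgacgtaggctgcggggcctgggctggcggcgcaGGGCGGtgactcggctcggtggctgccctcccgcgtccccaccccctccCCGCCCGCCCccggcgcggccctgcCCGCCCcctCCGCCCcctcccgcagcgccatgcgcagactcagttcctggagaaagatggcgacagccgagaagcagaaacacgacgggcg
PRKAA2: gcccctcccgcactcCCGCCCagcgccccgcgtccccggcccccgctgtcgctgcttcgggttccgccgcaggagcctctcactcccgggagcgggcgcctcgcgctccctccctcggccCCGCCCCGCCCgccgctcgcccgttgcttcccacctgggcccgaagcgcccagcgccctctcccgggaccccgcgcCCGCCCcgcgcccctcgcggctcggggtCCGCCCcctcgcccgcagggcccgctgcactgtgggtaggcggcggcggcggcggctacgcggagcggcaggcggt
TSC1: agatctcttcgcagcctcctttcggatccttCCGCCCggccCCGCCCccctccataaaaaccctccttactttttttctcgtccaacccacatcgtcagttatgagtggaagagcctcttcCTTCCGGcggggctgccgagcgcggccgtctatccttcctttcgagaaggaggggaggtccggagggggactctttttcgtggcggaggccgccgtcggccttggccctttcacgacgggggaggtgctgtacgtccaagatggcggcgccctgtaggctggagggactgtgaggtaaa
SESN2: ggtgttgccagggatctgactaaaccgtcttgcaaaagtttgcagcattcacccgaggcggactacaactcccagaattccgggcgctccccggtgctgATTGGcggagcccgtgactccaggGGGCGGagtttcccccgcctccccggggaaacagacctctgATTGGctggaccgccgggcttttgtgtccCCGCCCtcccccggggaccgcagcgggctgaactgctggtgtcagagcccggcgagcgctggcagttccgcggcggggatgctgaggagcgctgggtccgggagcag
ULK1: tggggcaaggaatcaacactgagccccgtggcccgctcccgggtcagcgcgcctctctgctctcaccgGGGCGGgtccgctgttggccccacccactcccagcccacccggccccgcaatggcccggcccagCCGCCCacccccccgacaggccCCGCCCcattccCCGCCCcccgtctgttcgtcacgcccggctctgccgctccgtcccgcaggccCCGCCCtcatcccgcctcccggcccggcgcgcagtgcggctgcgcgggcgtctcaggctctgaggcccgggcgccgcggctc

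The promoters ran from near the median of all promoters in CpG to well above it. All 10 entries, of which the 2 of TSC2 overlap, lay above the median GC content of the 35116 promoters in the table (58.7%). They also lay above the median ratio of observed to expected CpG (0.579). PRKAA2 had the highest GC content (82.7%, above 99.1% of promoters) and MTOR the lowest (59.3%, above 51.4%). STK11 had the highest CpG ratio, 1.06 (above 95.8%), and MTOR the lowest, 0.606 (above 51.5%). The GC box was present in 8 of the 9 genes, DDIT4 being the exception, against 45.0% of all promoters. It occurred 8 times in PRKAA1 and 5 times each in PRKAA2 and ULK1, counting overlapping matches. The CCAAT box was found in DDIT4, MTOR, SESN2 and STK11, against 34.6% of all promoters. The motif CCGGAAG was found in TSC1 and TSC2 (10.3% of all promoters), and CACGTG (7.26%) and TGATGNAA (3.62%) in TSC2 alone. None of the members held the NRF1 motif (5.78%), TGACGTCA (1.85%) or TATAAA (11.5%). All 8 motifs were searched on both strands by their letters, and different motifs overlapped each other in 1 of the 10 entries. A match is a description of the sequence and not a bound site.

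H3K4me3 was present at all 9 genes in both conditions, and H3K27me3 lay within 5 kb of none. Among windows of the same size around merged H3K4me3 regions of at least 1 kb, 11.0% held H3K27me3 of the metformin list and 9.16% of the control list, so a count of 0 of 9, which allows a share of up to 33.3%, lay near that background. The H3K27me3 interval nearest to a start was 68.2 kb away in the median gene after metformin (13.5 to 321 kb) and 84.6 kb away in control cells (5.80 to 323 kb). Just outside the 5 kb limit lay a control interval at ULK1, chr12:132373205-132373482, which ended 5797 bp upstream of the start, with a deposited value (read as −log10 q) of 1.42. The nearest metformin interval to ULK1 was 17.9 kb away. TSC1 had H3K27me3 at 13.5 kb after metformin (value 1.26) and at 12.8 kb in control cells (1.36). The nearest intervals of the 9 genes had values from 1.08 to 2.53. The lowest values in the H3K27me3 lists were 1.00 (metformin) and 1.01 (control), so many of these distances rest on intervals of low value. At STK11, DDIT4 and TSC2 the mark was 127 to 323 kb away in either list.

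In most of the genes H3K4me3 stood on both sides of the start and not on it. The TSS base itself was covered at 3 genes after metformin (PRKAA1, TSC1 and ULK1) and at 1 gene in control cells (TSC1). An interval came within 500 bp of the start at all 9 genes after metformin and at 8 in control cells, where the nearest interval of ULK1 began 565 bp downstream. Most of the marked sequence lay downstream of the starts. Upstream of them lay 30.2% of the length in the windows after metformin and 29.5% in control cells. Downstream length exceeded upstream length at 8 genes in each condition. The exception after metformin was PRKAA1, with 2970 bp upstream and 2037 bp downstream. In control cells it was TSC2, with 1768 bp upstream and 1544 bp downstream. No share over other genes was computed for these counts or for the presence of H3K4me3 at all 9 genes, so nothing is read from them.

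**Figure D1:**
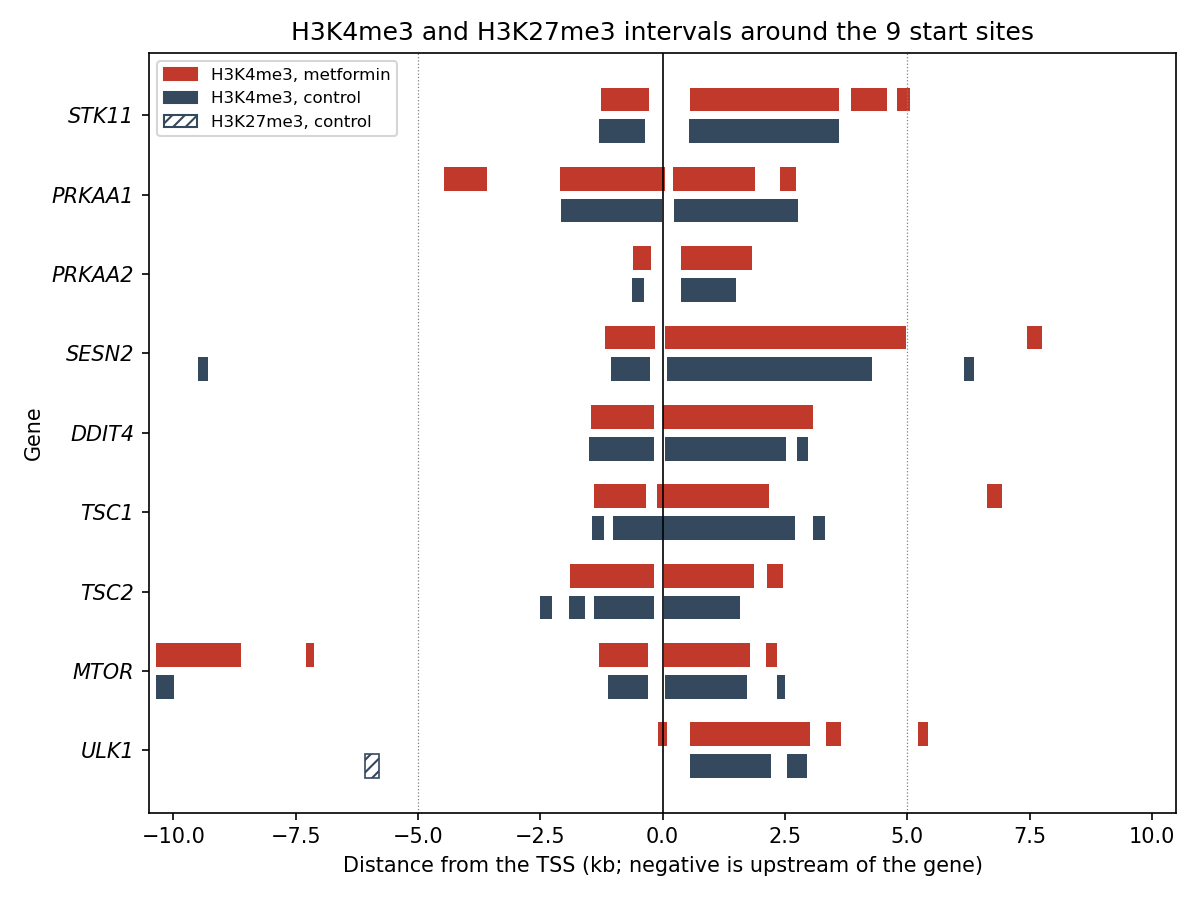
Intervals of H3K4me3 after metformin (red) and in control cells (dark blue) and of H3K27me3 in control cells (hatched), drawn by distance from the TSS in kb, with upstream to the left for each gene, dotted lines at the 5 kb limits and 1 library per bar row. The start lay under red at PRKAA1, TSC1 and ULK1 and under dark blue at TSC1, and the single hatched bar is the ULK1 interval beyond the limit.

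In summed length, the windows of the 9 genes held 35.2 kb of H3K4me3 after metformin and 31.2 kb in control cells, 1.13 times as much, and the whole lists differed by nearly the same ratio, 1.12. The median gene had 3873 bp after metformin (1794 to 5953 bp) and 4012 bp in control cells (1360 to 4987 bp). Gene by gene, the ratio of metformin to control length had a median of 1.17 and ran from 0.797 at TSC1 to 1.43 at ULK1. The metformin list was longer at 8 of the 9 genes, against 68.0% of 18985 background windows with H3K4me3 of both lists, whose median ratio was 1.09. At least 1.2 times as much was covered after metformin at 3 genes (ULK1, PRKAA2 and STK11), against 34.6% of background windows. At most 1/1.2 times as much was covered at 1 gene (TSC1), against 8.18%. Both counts lay near the background, and the members as a group were not set apart by them.

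**Figure D2:**
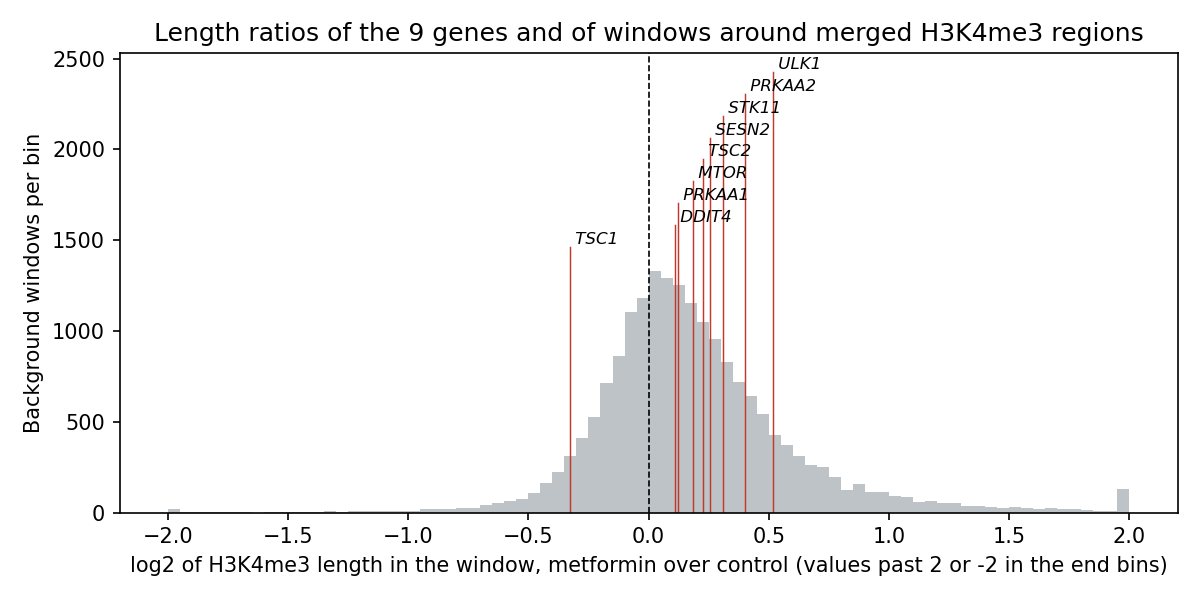
Log2 of the metformin over control H3K4me3 length in 18985 background windows (grey, windows per bin) with the 9 genes as red lines. TSC1 (ratio 0.797) lies left of the dashed line of equal length and the other 8 genes lie right of it, up to ULK1 (1.43), all within the range of the background.

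STK11 encodes LKB1, the kinase that activates AMPK. Its window held 4979 bp of H3K4me3 after metformin and 4012 bp in control cells (ratio 1.24). The main interval, downstream of the start, was nearly the same in both lists, chr19:1206358-1209411 (3054 bp) after metformin and chr19:1206329-1209398 (3070 bp) in control cells. The extra length came from intervals of 721 and 273 bp further into the gene after metformin, the outer of which began 4788 bp from the start and crossed the 5 kb limit at 5060 bp. Their deposited values, 4.02 and 2.63, were above those of 33.1% and 15.5% of the metformin list. Control cells had no interval past 3600 bp. Upstream, the mark covered 991 bp after metformin and 942 bp in control cells.

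PRKAA1 and PRKAA2 encode the alternative catalytic subunits of AMPK, alpha 1 and alpha 2. They differed in how much of the mark they carried. PRKAA1 had 5008 bp after metformin and 4601 bp in control cells (ratio 1.09), and PRKAA2 had the shortest marked length of the 9 genes, 1794 bp after metformin and 1360 bp in control cells (ratio 1.32). The highest value at PRKAA1 was 59.9 after metformin, above 96.8% of that list, and 32.4 in control cells, above 89.1% of that list. At PRKAA2 the highest values were 21.8 and 15.1, above 75.1% of the metformin list and 71.4% of the control list, which were the lowest such ranks among the members. Values were ranked within a list and not compared between lists, because they depend on depth.

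At PRKAA1 the upstream interval covered the start after metformin, reaching 41 bp into the gene (chr5:40798435-40800566), and it stopped 8 bp short of the start in control cells (chr5:40798484-40800547). Downstream, the metformin list had intervals of 1670 and 326 bp where the control list had a single interval of 2537 bp, and the outer ends differed by 43 bp. A further 880 bp interval lay 3589 to 4468 bp upstream after metformin, with no control partner and a value of 3.64. The RefSeq table on GRCh38.p14 lists no other gene start within 5 kb of PRKAA1. At PRKAA2 the downstream interval began 385 bp after the start in metformin and 383 bp in control cells, and it was 1438 and 1118 bp long. A short upstream interval was 356 bp long after metformin and 242 bp in control cells.

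SESN2 and DDIT4 encode stress-induced brakes on mTORC1, sestrin 2, a leucine sensor that acts through GATOR2, and REDD1, which acts through TSC2. SESN2 had the longest interval among the members in both lists, chr1:28586009-28590937 (4929 bp) after metformin and chr1:28586055-28590234 (4180 bp) in control cells. Both exceeded 4 kb and were wider than 98.8% and 98.0% of their own lists. The metformin interval held 14 sub-peaks and the control interval 11. It extended 703 bp further into the gene after metformin. Within 5 kb of the start, every base under H3K4me3 in control cells was also covered after metformin (4987 bp, against 5953 bp in all after metformin). The highest SESN2 value was 42.1 after metformin and 62.0 in control cells, above 90.7% and 98.7% of the lists. DDIT4 had 4338 bp after metformin and 4019 bp in control cells (ratio 1.08). Its downstream interval was 3050 bp long after metformin, where the control list had intervals of 2469 and 220 bp with a gap between them, and the outer ends lay 3066 and 2972 bp from the start. Upstream, the ends nearest to the start fell on the same base, 182 bp before it.

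TSC1 and TSC2 encode hamartin and tuberin, the complex that inactivates RHEB, the activator of mTORC1. TSC1 was the single gene with less H3K4me3 after metformin, 3359 bp against 4215 bp in control cells. In control cells an interval of 3720 bp, chr9:135817306-135821025, ran across the start, from 1005 bp upstream to 2714 bp downstream. After metformin this stretch held an interval of 2299 bp (chr9:135817845-135820143), from 123 bp upstream to 2175 bp downstream, and an upstream interval of 1060 bp after a gap of 225 bp. A control interval of 246 bp at 3068 to 3313 bp downstream had no metformin partner, and its value of 1.32 was close to the lowest in the list. Most of the difference lay downstream of the start, where 2175 bp were covered after metformin and 2960 bp in control cells. Upstream the lengths were 1183 and 1254 bp. The control list had its own upstream gap of 190 bp, covered after metformin, with an interval of 249 bp beyond it. The highest TSC1 values were 53.4 after metformin and 57.5 in control cells, above 95.3% and 98.1% of the lists.

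TSC2 had 3873 bp after metformin and 3312 bp in control cells (ratio 1.17). Its downstream interval began on the same base in both lists, 34 bp after the start, and ended 1862 bp after it in metformin and 1577 bp in control cells. Upstream, a single metformin interval of 1731 bp (chr16:2096091-2097821) lay where the control list had intervals of 1220 and 321 bp. In RefSeq on GRCh38.p14 the start of NTHL1, which encodes a DNA repair glycosylase, lies upstream on the opposite strand within 5 kb, and GFI1B stands likewise to TSC1, so that upstream H3K4me3 at TSC1 and TSC2 cannot be assigned to a single gene. DDIT4 (with DDIT4-AS1) and ULK1 (with LOC124903059) also have such an upstream neighbour in that table, and PRKAA2 has one downstream, LOC101929935.

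MTOR encodes the kinase at the core of mTORC1 and mTORC2. It had 2998 bp after metformin and 2639 bp in control cells (ratio 1.14). The downstream interval, chr1:11320826-11322590 after metformin and chr1:11320885-11322556 in control cells, was 1765 and 1672 bp long, and the upstream interval 1017 and 803 bp. The highest values were 38.1 after metformin and 37.7 in control cells, above 88.3% and 92.1% of the lists.

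ULK1 encodes the kinase that starts autophagy, which AMPK activates and mTORC1 inhibits. It had the highest ratio of length among the members (1.43), with 2946 bp after metformin and 2056 bp in control cells. All control sequence under H3K4me3 in the window was also covered after metformin. The downstream interval was 2460 bp long after metformin (chr12:132379840-132382299, 6 sub-peaks), where the control list had intervals of 1641 bp (2 sub-peaks) and 415 bp (1 sub-peak). The start itself was covered after metformin by an interval of 182 bp, chr12:132379190-132379371, with a value of 6.76, above 51.6% of that list. It was the shortest metformin interval among the members. The control list had no interval upstream of the ULK1 start or over it. Just outside the 5 kb limit, a metformin interval of 201 bp began 5228 bp downstream.

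**Figure D3:**
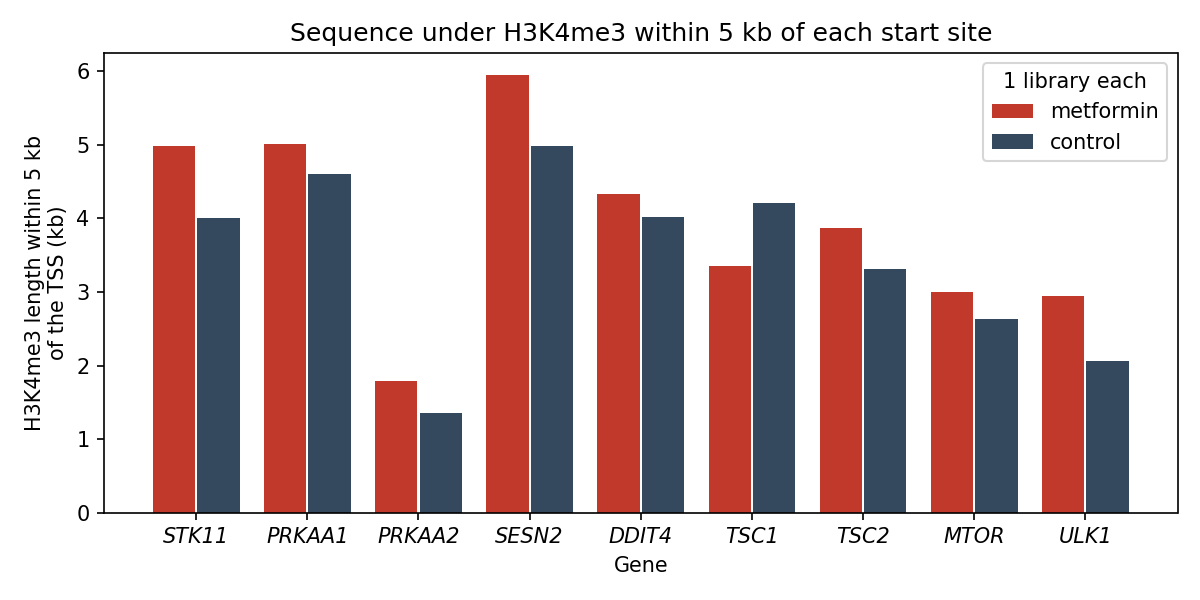
H3K4me3 length in kb within 5 kb of the TSS of each gene after metformin (red) and in control cells (dark blue), 1 library each, so without error bars. The metformin bar is the higher at 8 genes and the lower at TSC1, and SESN2 is the highest in both (5953 and 4987 bp).

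Gaps in H3K4me3 at the start were measured after the intervals had been seen. For each list the gap of at most 1 kb nearest to the TSS was taken, and gaps of the lists were matched when each overlapped the other and no further gap. This gave 7 genes, all but TSC1 and ULK1. At those, the nearest gaps lay at different places in the lists and were longer after metformin. At TSC1 the nearest gap was 225 bp after metformin, where control H3K4me3 was continuous, and 190 bp in control cells, and at ULK1 it was 468 and 329 bp. The metformin gap was the shorter in 7 of the 7 matched genes. The separate medians were 202 bp after metformin and 348 bp in control cells. Taken gene by gene, the median difference (metformin minus control) was -60.0 bp. Across 12227 gaps matched by the same overlap rule over the whole lists, 64.0% were shorter after metformin. Their medians were 299 and 345 bp, and the median difference was -29.0 bp. Those gaps lay anywhere in the lists and not only near starts, so they are not a like background. STK11 had the widest gap, 837 bp after metformin and 897 bp in control cells, followed by PRKAA2 with 626 and 764 bp. The gap at MTOR was 310 bp after metformin and 356 bp in control cells. SESN2 had the largest difference, with 196 bp after metformin and 348 bp in control cells, and TSC2 the smallest, with 202 and 221 bp. At DDIT4 the gap was 198 and 232 bp, and at PRKAA1 171 and 244 bp.

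**Figure D4:**
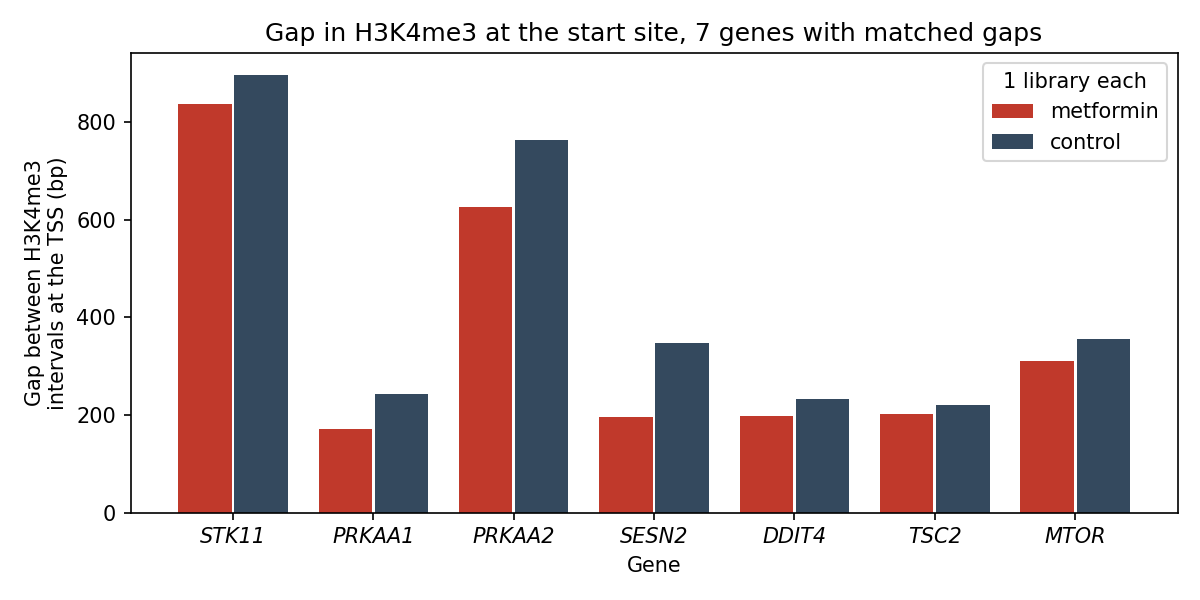
Length in bp of the gap between H3K4me3 intervals at the TSS after metformin (red) and in control cells (dark blue) for the 7 genes with matched gaps, 1 library each. The metformin gap is shorter at each of the 7 genes, from 19 bp shorter at TSC2 to 152 bp shorter at SESN2. Of matched gaps anywhere in the lists, 64.0% were shorter after metformin. TSC1 and ULK1, not drawn, had longer nearest gaps after metformin, at other places than in control cells.

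The sequence under H3K4me3 at these genes was largely common to the lists. Of the length in the windows, 82.4% of the metformin part was also covered in control cells and 93.1% of the control part after metformin. Over the whole lists the shares were 74.3% and 83.0%. Those lists hold narrower intervals (median 524 and 517 bp, against 1060 and 1118 bp in the windows), and sharing was not compared at like width. Counted as intervals, 19 of 25 metformin intervals (76.0%, exact Clopper-Pearson 95% interval 54.9 to 90.6) and 21 of 23 control intervals (91.3%, 72.0 to 98.9) had a partner, against 67.3% and 77.3% over the whole lists. The 95% limits cover counting error only. They treat the H3K4me3 intervals as independent, although several lie at the same gene. The 6 metformin intervals without a partner lay at STK11 (2), ULK1 (2), PRKAA1 and TSC2, were 182 to 880 bp long and had values of at most 6.76. The 2 control intervals without a partner lay at TSC1 and TSC2, were 246 and 227 bp long and had values of at most 2.41. Upstream, the outermost end of H3K4me3 lay further from the start after metformin at 4 genes and nearer to it at 5. It differed by at most 50 bp between the lists at 4 genes (PRKAA2 by 26 bp, TSC1 by 36 bp, STK11 by 40 bp and DDIT4 by 42 bp). Downstream, the outermost end lay further from the start after metformin at 6 genes and nearer to it at 3 (PRKAA1, MTOR and TSC1). No share over other genes was computed for these ends, so nothing is read from the counts.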

How the data were processed

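The series holds 6 samples, and the 4 ChIP-seq peak lists were used; the 2 inputs were not analysed. Per the submitters' processing notes, Trimmomatic 0.38, Bowtie and MACS2 were used with the build hg19 (GRCh37). Options and the background library: not given in the sources used here. Every deposited list belongs to 1 library and gives, without a header, an interval and 1 value. The deposited values were read as −log10 q from the values alone: they start at 1.31 for H3K4me3, just above the −log10 of 0.05 (1.30), and at 1.00 (metformin) and 1.01 (control) for H3K27me3, as for q = 0.1. The authors' values are of each peak and were only ranked within a list.

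Lines with the same interval (lettered sub-peaks) were joined, keeping the highest value. Coordinates are 1-based on hg19. Start sites were given by the rule for the members, and strands came from the RefSeq table. Members, lists and rules were chosen with earlier results of these data known. All 9 members are named; the gaps and the background of like length were added after seeing the data. Background windows were 5 kb on each side of the centre of merged H3K4me3 regions of at least 1 kb. The other pathway genes and genes of similar pattern were not analysed here, since no hg19 annotation was used. Code was tested on simulated data: 100% of 200 windows widened by 1.5 times and 0% of the others, of 2000 in all, were called. The other windows were equal in both simulated lists, so this checks the code and gives no rate of false calls for real lists. Python 3.11.15, pandas 2.3.3, numpy 2.4.6 and matplotlib 3.10.9 were used.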

Additional observations from a re-analysis of the deposited data

How the results depend on the processing

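No paired analysis was possible because each mark had a single library in either condition, and no replicate could be left out. Values are given as metformin, then control. The start was covered at 9 and 8 genes, in place of 3 and 1, with intervals within 1 kb merged. Merging fills any gap of up to 1 kb, and the matched gaps were at most 897 bp, so that rise was fixed in advance. An interval came within 500 bp of the start at 9 and 8 genes, which does not require the start to be covered. H3K27me3 was found at 0 and 1 genes with a 10 kb window, and at 0 under the other settings. The 1 gene was ULK1, through a single interval with a value of 1.42. No background share was computed at 10 kb, so nothing is read from that count. The ratio of summed length (1.13) was 1.1 at a value of at least 5, 1.11 with merging, 1.07 with a 2 kb window and 1.19 with a 10 kb window. Genes at least 1.2 times as long (3) numbered 1 with a 2 kb window, 2 with merging and 4 with a 10 kb window, and 6 and 0 at ratios of 1.1 and 1.5. The 1 gene that was shorter passed at 1.1, and 0 did with a 2 kb or 10 kb window or at 1.5. At 1.1, 49.2% of background windows were longer and 16.4% shorter, so many windows pass at that ratio. At 1.5, a count of 0 of 9 allows a share of up to 33.3%, above the background share in either direction. No background share was computed with merging or with a 2 kb or 10 kb window, so nothing is read from those counts. At a ratio of 1.2, with 10 kb tiles as the background the shares were 38.3% longer and 15.8% shorter, and among windows of like control length 36.0% and 8.38%. Shared length (82.4% and 93.1%) was 85.4% and 93.9% at a value of at least 5, 85.3% and 94.3% with merging, 91.8% and 97.8% with a 2 kb window, and 77.2% and 91.9% with a 10 kb window. As shares of intervals it was 76.0% and 91.3% with 1 bp overlapped and 72.0% and 87.0% with 50%. Lists of equal length left out 0 of the H3K4me3 intervals in the 5 kb windows, so they test nothing there. The gap was shorter in 7 of 7 genes also between intervals of at least 5 (70.5% of all matched gaps) and with gaps of up to 2 kb (63.6%), settings chosen after seeing the data. The causes were not tested.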

Other observations

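Beyond the 5 kb limit, the largest difference in length near a member lay upstream of MTOR, and it was named after its values were seen. At 8617 to 10350 bp upstream the metformin list had an interval of 1734 bp with 3 sub-peaks, chr1:11331225-11332958, and the control list had 1 of 369 bp, chr1:11332595-11332963. Their deposited values were 12.7 and 12.5, above 65.8% and 67.5% of their own lists. A metformin interval of 172 bp with a value of 1.49 lay 7124 to 7295 bp upstream of MTOR, and control cells had none there. At SESN2, short intervals beyond the limit differed between the lists. The metformin list had 302 bp at 7453 to 7754 bp downstream, and the control list had 190 bp at 6166 to 6355 bp downstream and 216 bp at 9287 to 9502 bp upstream, with values of 2.28, 1.31 and 1.58.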
